A study of Mus musculus with 5 samples.

Results

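Among the 240 lateral ventricle cells, 88 carried Acta2 at or above 500 CPM (the gene's share of the cell's reads, scaled to a common total) and 97 carried it below 50 CPM. The other 55 lay between these cuts. The whole series held 1473 cells. Acta2 encodes smooth muscle alpha-actin, and the cells were divided by its read count divided by all reads of the cell. The values of Acta2 that chose the cells are therefore a description only, and every gene below is another gene. The Acta2-high cells had 503 to 8807 CPM of Acta2 with a median of 1318, and 67 of the 97 Acta2-low cells had 0 reads of it. The cells nearest to the upper cut stood at 461 and 503 CPM, and those nearest to the lower cut at 32.5 and 57.5 CPM. Within 25% of the upper cut lay 15 cells, and 1 cell lay within 25% of the lower cut.

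The cells were microdissected from the ventricle walls of 3-month-old FoxJ1CreERT2 R26TdT mice, which carry an inducible Cre recombinase at Foxj1 and a Cre-dependent tdTomato reporter. Foxj1 drives the formation of motile cilia, so the line marks ciliated cells. The line's 10 animals (5 females and 5 males) supplied tissue of the spinal cord, the aqueduct of the midbrain and the lateral and the third ventricles, and no label tied a cell to an animal. A further midbrain sample came from Nkx2-2Cre R26TrapC females of the same age. The labels do not say whether cells of both Acta2 groups came from the same animals. All cells compared here were of 1 sample, so the differences have no replicate check and no test, and the cells are not replicates.

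Ependymal cells form the ciliated sheet between brain and cerebrospinal fluid, and their beating cilia move that fluid along the ventricles. Acta2 belongs to a contractile gene set best known from smooth muscle, with Tagln (the actin-binding protein transgelin), Myl9 (a regulatory light chain of myosin), the calponins, tropomyosins and caldesmon. Many genes of this set are controlled by serum response factor, SRF, which binds a DNA element called the CArG box and works with the cofactors myocardin and MRTF. Outside muscle, such genes are also expressed in myofibroblasts and in pericytes of small vessels.

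The cells fell into 3 runs of 96 consecutive cell numbers, taken here as plates, and the second run stood apart. It held 11 of the 88 Acta2-high and 50 of the 97 Acta2-low cells, against 35 and 21 in the first run and 42 and 26 in the third. Its cells had a median of 4423.5 detected genes, against 5615 and 5873 in the other runs. Xist was read in 2.50% of its cells, against 48.1% in each of the other runs, and Y-linked genes were read in 52.5%, against 19.8% and 12.7%. The sex of the animals and the run therefore moved with the Acta2 groups, and their part in the differences was not tested, so ratios are also given within each run. Median depth was 701204 reads in Acta2-high and 707419 in Acta2-low cells, with medians of 5802.5 and 5127 detected genes. After each cell was thinned to 100000 reads these medians were 4912.5 and 4212 genes.

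**Figure D1:**
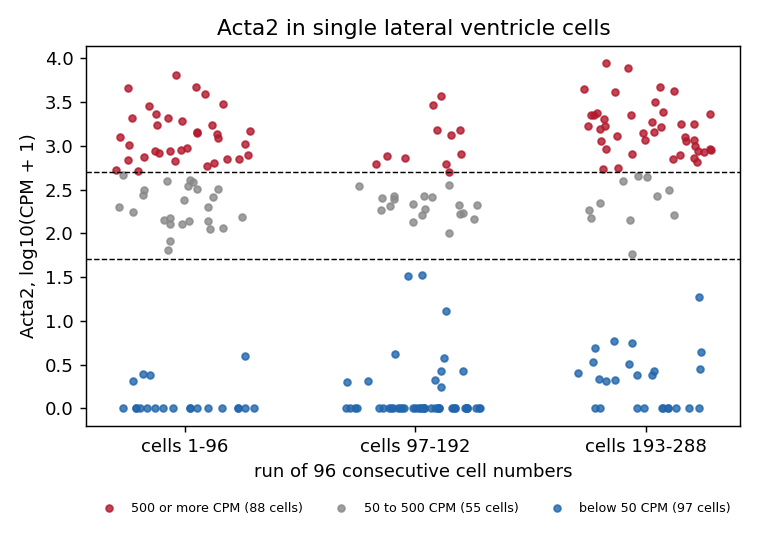
Acta2 in each of the 240 lateral ventricle cells, as log10(CPM + 1), in 3 runs of 96 consecutive cell numbers. Each point is a cell, colours mark the 3 levels of Acta2 and dashed lines the cuts at 50 and 500 CPM. The middle run holds most of the Acta2-low cells (50 of 97) and few of the Acta2-high cells (11 of 88).

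Both groups carried the markers of ependymal cells. The 12 ependymal markers summed to 17246 CPM in the median Acta2-high cell, with a range of 10668 to 35450, and to 21985 CPM in the median Acta2-low cell, with a range of 11544 to 33080. Tmem212, an ependymal marker, was read in 100% of the cells of both groups, as were Ccdc153 and Dynlrb2. Defining markers of vascular mural cells were absent or near 0. Pdgfrb and Vtn had 0 reads in both groups, none of the 7 mural markers in the table reached 20 CPM, and Rgs5, Kcnj8, Abcc9 and Myh11 were not among the genes analysed here. The mural markers summed to 17.8 CPM over the Acta2-high and 7.29 CPM over the Acta2-low cells, with 0 CPM in the median cell of both groups, up to 925 CPM in 1 Acta2-high cell and up to 154 CPM in 1 Acta2-low cell. In Acta2-high cells 899 of those reads were of Cnn1 and 221 of Lmod1, which are contractile genes themselves, 76 of Ndufa4l2 and 23 of Notch3. In Acta2-low cells 157 were of Cnn1, 79 of Lmod1 and 244 of Cspg4, which also marks oligodendrocyte precursors. With the cells left out that had 20 CPM or more summed over the other mural markers, 1 Acta2-high and 3 Acta2-low, the counts of genes given below were nearly as before, at 459 and 156. Of 12 endothelial markers listed, only 3 (Kdr, Egfl7 and Slco1a4) were among the genes analysed here, without Pecam1, Cldn5, Flt1 or Cdh5. These 3 summed to 20.8 and 15.7 CPM, most of it Kdr (20.4 and 13.3 CPM). Mbp, a myelin gene, stood at 92.4 CPM in Acta2-high and 27.8 CPM in Acta2-low cells, while Mog, Olig2 and Sox10 had 0 reads in both. The part of myelin RNA in the differences was not tested.

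Acta2-high cells differed from Acta2-low cells in many genes, of which the contractile genes were a small part. Genes were compared when they reached 20 CPM in the higher group, and a ratio sets the CPM of the reads summed over 1 group of cells against that of the other. Of 7772 genes, 436 (5.61%) were at least 2-fold higher in Acta2-high cells and 151 (1.94%) at least 2-fold lower. The median log2 ratio of all 7772 genes was 0.04. Of the higher genes 301 were higher within each of the 3 runs, which is 3.87% of all 7772 genes. Of the lower genes 104 were lower within each, which is 1.34% of all 7772. Without the second run the counts were 365 higher and 261 lower, and 223 and 76 genes were then called as before. Without the first run 764 and 300 genes passed, and without the third 795 and 299. On the deposited log2 values, which average each cell's log value, the split was 1267 higher and 56 lower, and on the mean of the 3 runs' log2 ratios it was 445 higher and 545 lower. The number of genes on each side therefore moved with the way cells were averaged.

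Tagln and Myl9 accompanied Acta2, and most other contractile genes did so by little. Of the 19 contractile genes listed, 15 were in the table and 9 reached 20 CPM, and 2 of these 9 were at least 2-fold higher, against 5.61% of all genes. Their median log2 ratio was 0.44, with 8 of 9 higher, against 53.6% of all genes, and medians of 0.83, 0.35 and 0.59 within the runs. In every run 5 of the 9 were higher, and 1 was lower in every run. The matching shares of all genes, by any amount in every run, were not counted. None was at least 2-fold lower.

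Myl9 had a median of 619 CPM in Acta2-high cells (0 to 5932), 352 CPM in the cells between (0 to 2833) and 80.7 CPM in Acta2-low cells (0 to 1652). The single-cell ranges overlapped widely, and the medians followed Acta2. Summed over cells, Myl9 stood at 710 CPM in Acta2-high and 201 CPM in Acta2-low cells, 3.54-fold higher (95% counting interval 3.47 to 3.61). Within the runs it stood at 578, 1040 and 746 CPM in Acta2-high cells and at 94.0, 246 and 207 CPM in Acta2-low cells. Each of the 3 higher values thus lay above each of the 3 lower ones, as in 5.44% of all genes. Reads of Myl9 were found in 95.5% of Acta2-high and 67.0% of Acta2-low cells (92.0% and 58.8% after thinning).

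Tagln was a feature of some Acta2-high cells and not of most. Its median was 0 CPM in all 3 groups of cells, and its highest value was 2477 CPM in Acta2-high and 348 CPM in Acta2-low cells. It was read in 46.6% of Acta2-high cells (95% Clopper-Pearson interval 35.9 to 57.5) and in 12.4% of Acta2-low cells (6.56 to 20.6). Summed over cells it stood at 216 CPM against 10.3 CPM, 21.0-fold higher (19.5 to 22.7). The values were 106, 234 and 323 CPM in Acta2-high cells of the 3 runs and 9.63, 10.2 and 11.1 CPM in Acta2-low cells.

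Of the remaining 7 contractile genes above 20 CPM, 6 were higher and 1 lower, all by less than 2-fold. Tpm1, a tropomyosin, stood at 303 CPM in Acta2-high and 174 CPM in Acta2-low cells, a log2 ratio of 0.80, but it was lower in the second run (-1.08). Kcnmb1, a regulatory subunit of the calcium-activated potassium channel of smooth muscle, stood at 463 and 342 CPM and was higher in every run (0.83, 0.35 and 0.80). Cald1 (caldesmon) stood at 766 and 711 CPM summed over all runs, but it was lower within each run (-0.18, -0.47 and -0.05). Csrp2 stood at 602 and 544 CPM and Myl6, an essential myosin light chain, at 39.5 and 36.0 CPM. Synpo2 (synaptopodin 2) had a log2 ratio of 0.81 and Csrp1 one of -0.37. Under 20 CPM in both groups, Tpm2 stood at 13.5 and 0.61 CPM, Cnn1 (calponin 1) at 13.1 and 2.39 CPM, Lmod1 at 3.22 and 1.20 CPM. Mylk, the kinase that activates myosin light chains, was also under 20 CPM, with a log2 ratio of 0.11. Cnn1 was read in 15.9% of Acta2-high cells and Tpm2 in 12.5%. Myh11, Actg2, Des and Pln were not analysed here. The close paralogs of Acta2 that could share its reads had little of their own: Acta1 stood at 1.28 and 1.03 CPM and Actc1 at 2.14 and 2.84 CPM.

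RNA of SRF and of its cofactors did not separate the groups by 2-fold in any gene above 20 CPM. Srf stood at 46.5 CPM in Acta2-high and 40.2 CPM in Acta2-low cells, and Mrtfb at 67.9 and 87.1 CPM. Fhl1, a LIM-domain protein of muscle, stood at 2318 and 2574 CPM. Under 20 CPM, Fhl2 had 658 reads in Acta2-high cells (9.59 CPM, read in 10.2% of them) and 1 read in Acta2-low cells, and Myocd (myocardin) had 127 reads and 2 reads.

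The CArG box was looked for in the 250 bases before each transcription start of the RefSeq promoter table (GRCm38.p6), as CC, 6 bases that are each A or T, then GG. The pattern reads the same way on both strands. It was found in 482 of 32851 windows (1.47%), in 83 of the 6052 compared genes that had a window (1.37%), in 9 of 334 genes at least 2-fold higher in Acta2-high cells (2.69%) and in 1 of 113 at least 2-fold lower (0.885%). The 9 were Myl9, Cnn2, Prune2, Vcl, Fut8, Tbc1d23, Trip10, Glipr2 and Zfp644. The windows of Myl9, Cnn2 and Prune2 are shown because these genes also met the rules for large ratios or close rank correlation with Acta2. Each is written 5′ to 3′ on the gene's strand, stops before the first base that RefSeq or GENCODE vM21 gives to the gene, and has the box in capitals.
Myl9, chr2:156775214-156775419 (+), box from 161 bases before the RefSeq start: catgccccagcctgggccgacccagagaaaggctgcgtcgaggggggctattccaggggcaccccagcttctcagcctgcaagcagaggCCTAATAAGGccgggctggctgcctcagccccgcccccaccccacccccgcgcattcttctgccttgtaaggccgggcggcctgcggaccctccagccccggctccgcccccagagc
Cnn2, chr10:79988350-79988583 (+), box from 56 bases before the RefSeq start: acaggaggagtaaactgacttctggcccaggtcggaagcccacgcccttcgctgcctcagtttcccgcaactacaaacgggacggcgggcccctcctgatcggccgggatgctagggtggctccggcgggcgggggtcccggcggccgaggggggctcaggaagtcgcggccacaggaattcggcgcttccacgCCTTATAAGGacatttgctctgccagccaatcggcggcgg
Prune2, chr19:16955868-16956117 (+), box from 80 bases before the RefSeq start: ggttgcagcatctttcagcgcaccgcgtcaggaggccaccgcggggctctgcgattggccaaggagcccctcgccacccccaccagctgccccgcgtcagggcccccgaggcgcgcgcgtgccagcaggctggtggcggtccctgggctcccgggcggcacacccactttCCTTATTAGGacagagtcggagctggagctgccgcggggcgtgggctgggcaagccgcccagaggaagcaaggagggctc
No box of exactly this form was found in the window of Acta2, and the table gave no window for Tagln. Forms with another base inside the 6 were not looked for. Myl6, nearly level between the groups (log2 ratio 0.13), had a box from 50 bases before a RefSeq start. Of the 34 genes named by size of ratio or by correlation, 22 had a window. A match is a description of these letters and shows no binding.

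The 12 genes with the largest ratios above Acta2-low cells were Htr5b, Fstl1, Cnn2, Tagln, Slc6a15, Acsbg1, Sostdc1, Pde1a, Tgm2, Etnppl, Plscr4 and Timp4. The rule that named them asked for 20 CPM and a read in at least 25% of the Acta2-high cells, at least a 2-fold ratio and the same direction in every run, which 262 genes met. All 12 had each run's Acta2-high value above each run's Acta2-low value, as did 5.44% of all genes, but the rule already asked for nearly that. For 11 of the 12 the cells between the cuts had a value between those of the other groups.

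Htr5b encodes a serotonin receptor. It was read in 30.7% of Acta2-high cells (21.3 to 41.4), with a highest value of 2363 CPM. In Acta2-low cells it had 1 read in all, and in the cells between its highest value was 1.06 CPM. Summed, it stood at 129, 62.8 and 185 CPM in Acta2-high cells of the 3 runs. Htr5b thus appeared above 20 CPM in 22 of the 88 Acta2-high cells and in 0 of the 97 Acta2-low cells, which allows a share of up to 3.09% in the latter. That bound covers the counting of cells of 1 sample only. Htr5b was named by its ratio between these same groups, so its excess in Acta2-high cells follows from the choice.

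Timp4, an inhibitor of matrix metalloproteinases, had medians of 20.4 CPM in Acta2-high cells and 0 CPM in both other groups. Its highest values were 830, 739 and 501 CPM in the high, between and low cells. Summed it stood at 133 CPM in Acta2-high and 15.5 CPM in Acta2-low cells, 8.59-fold higher (8.05 to 9.17), with 53.4% and 14.4% of cells having a read. Tgm2, the transglutaminase that crosslinks proteins, stood at 133 and 14.1 CPM, 9.43-fold higher (8.81 to 10.1). Its Acta2-low values were 13.0, 0.060 and 42.4 CPM in the 3 runs and its Acta2-high values 96.5, 105 and 178 CPM.

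Cnn2 encodes calponin 2, a form of calponin also found outside smooth muscle. It stood at 35.1 CPM in Acta2-high, 0.39 CPM in the between and 0.96 CPM in Acta2-low cells, and 22 of the high and 6 of the low cells had a read. Fstl1, a secreted glycoprotein, stood at 25.1 CPM and had 3 reads in all Acta2-low cells. Sostdc1, a secreted antagonist of BMP and Wnt signals, stood at 54.6 and 4.68 CPM, and was the only one of the 3 choroid plexus markers above 20 CPM that differed by 2-fold. Acsbg1, an acyl-CoA synthetase, stood at 82.1 and 6.23 CPM, and Etnppl, which breaks down phosphoethanolamine, at 106 and 11.6 CPM. Slc6a15, a transporter of neutral amino acids, stood at 41.1 and 2.14 CPM. Pde1a, a calmodulin-dependent phosphodiesterase, stood at 35.5 and 3.40 CPM, and Plscr4, a phospholipid scramblase, at 38.2 and 4.25 CPM.

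These genes gathered in part of the Acta2-high cells. Counting how many of the 12 a cell carried at 20 CPM or more gave a median of 3 in Acta2-high cells, 1 in the cells between and 0 in Acta2-low cells. At least 6 were carried by 27 of the 88 Acta2-high cells (30.7%). None of the 55 cells between and none of the 97 Acta2-low cells carried as many, counts of 0 that allow shares of up to 5.45% and 3.09%, while 14 Acta2-high cells carried none. Of the 27, 8 were among the 35 Acta2-high cells of the first run, 3 among the 11 of the second and 16 among the 42 of the third. The 12 genes were chosen by the same groups, so that their excess in Acta2-high cells is fixed by the choice, whereas their meeting in the same cells is not.

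Tagln marked much of this difference among Acta2-high cells. At 20 CPM or more it was found in 33 of the 88, being 10, 4 and 19 cells of the 3 runs. Htr5b was at 20 CPM or more in 18 of these 33 (54.5%) and in 4 of the 55 others (7.27%). Timp4 was so in 28 of 33 (84.8%) and 16 of 55 (29.1%), Tgm2 in 26 (78.8%) and 18 (32.7%), Etnppl in 24 (72.7%) and 14 (25.5%), and Cnn2 in 12 (36.4%) and 4 (7.27%). Pde1a was less divided, with 9 (27.3%) and 12 (21.8%). Median Myl9 was 984 CPM in the 33 cells and 357 CPM in the 55, and median Sparc 2475 and 936 CPM. The 33 cells also had more Acta2, with medians of 2229 against 996 CPM. Their depth and gene number were much alike, at 705875 and 696532 reads and 5923 and 5722 genes, and the ependymal markers summed to medians of 15767 and 18088 CPM.

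**Figure D2:**
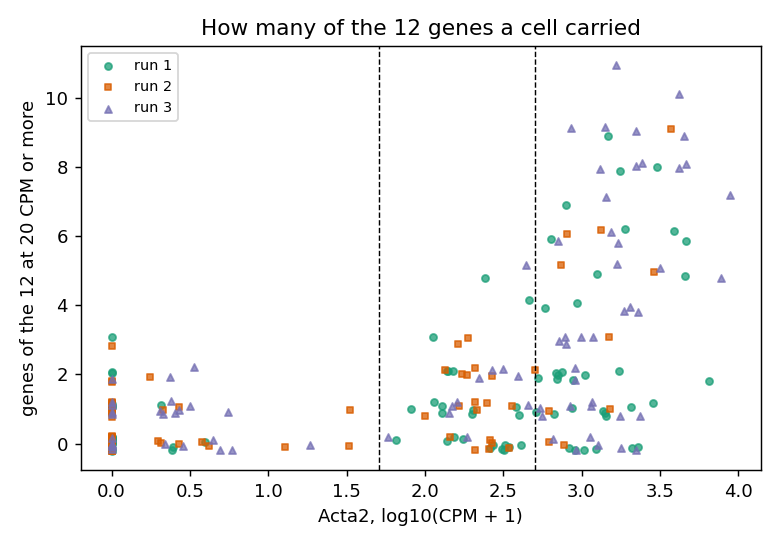
Number of the 12 genes with the largest ratios that each of the 240 cells carried at 20 CPM or more, against Acta2 as log10(CPM + 1). Points are cells, shifted slightly up or down to separate them, colours and shapes are the 3 runs, and dashed lines are the cuts at 50 and 500 CPM. Cells with 6 or more of the genes, 27 in all, lie above the upper cut only, and 14 cells above it carry none.

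The 10 genes whose rank followed Acta2 most closely over the 240 cells, among 4331 genes read in at least 50% of them, were Myl9, Actb, Shisa4, Vim, S100a6, Abat, Prune2, Sparc, Bace2 and Gsn. Their Spearman coefficients ran from 0.50 for Myl9 to 0.40. These are descriptions over cells of 1 sample that share plates and differ in depth.

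Shisa4, a small membrane protein, had a median of 148 CPM in Acta2-high cells and 0 CPM in both other groups. Summed it stood at 258, 54.0 and 43.3 CPM in the high, between and low cells, so that the cells between resembled the Acta2-low cells. S100a6, a calcium-binding protein, had medians of 221, 74.6 and 0 CPM, and summed to 333 CPM in Acta2-high and 88.7 CPM in Acta2-low cells, 3.76-fold higher (3.65 to 3.87). Gsn encodes gelsolin, which severs actin filaments. Its medians were 570, 157 and 1.92 CPM, and it summed to 949 and 254 CPM, 3.74-fold higher (3.68 to 3.81). All 3 genes were higher within each run without overlap between the runs' values, as were 5.44% of all genes and 7 of the 10 genes here. These 10 were chosen by rank correlation with Acta2 over the same cells, which favours that pattern.

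Sparc, a matrix-binding glycoprotein, stood at 1630 and 780 CPM, and Vim, the intermediate filament vimentin, at 1285 and 772 CPM. Prune2 stood at 208 and 59.5 CPM, and its value in Acta2-high cells of the second run (79.6 CPM) fell below that of Acta2-low cells in the first (96.9 CPM). Bace2, a protease, stood at 254 and 114 CPM, and Abat, which degrades GABA, at 378 and 197 CPM. Actb (beta-actin) stood at 3885 and 2686 CPM, and in the second run its log2 ratio was 0.07. Actg1, the other cytoplasmic actin gene, stood at 1.44 and 1.94 CPM in this table, a level that can reflect how reads of near-identical genes were counted.

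**Figure D3:**
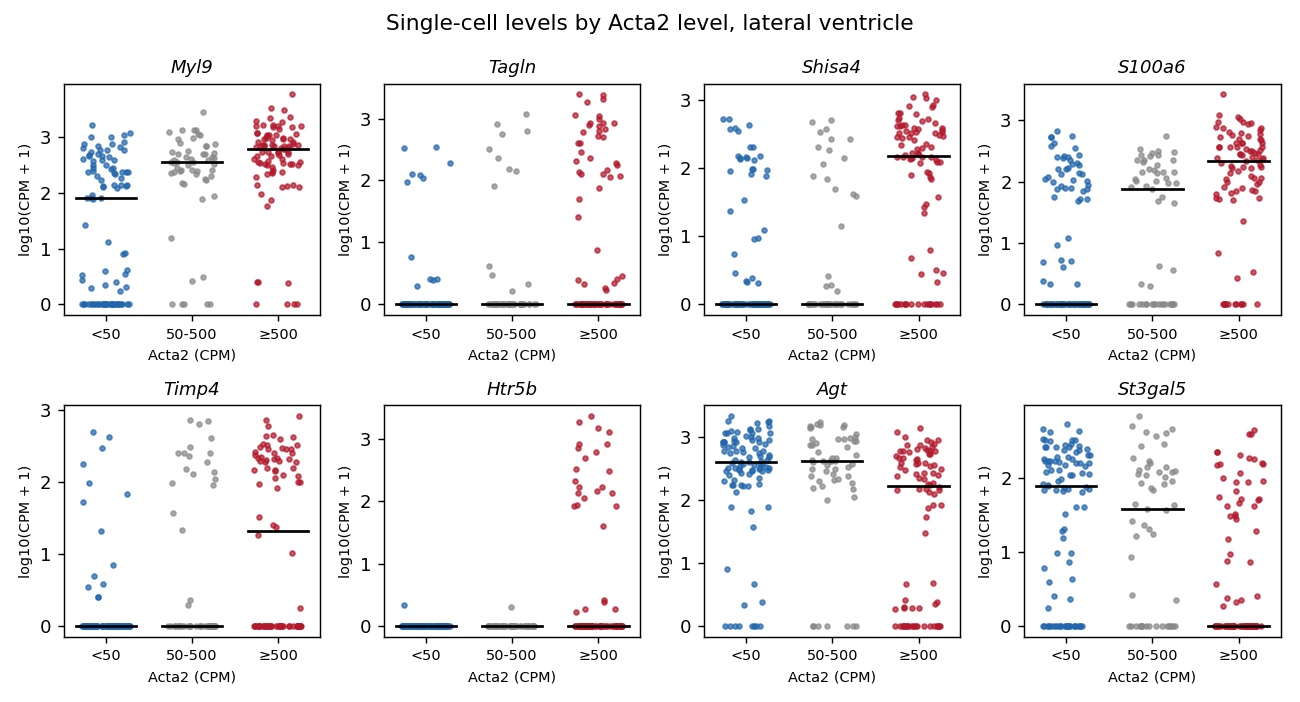
Levels of 8 genes in single cells, as log10(CPM + 1), in cells with Acta2 below 50 CPM (97 cells), between 50 and 500 CPM (55 cells) and at or above 500 CPM (88 cells). Points are cells and the black line is the median. Tagln and Htr5b are at 0 in most cells of every group, Myl9 and S100a6 have their highest median in Acta2-high cells, and Agt and St3gal5 their lowest.

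**Figure D4:**
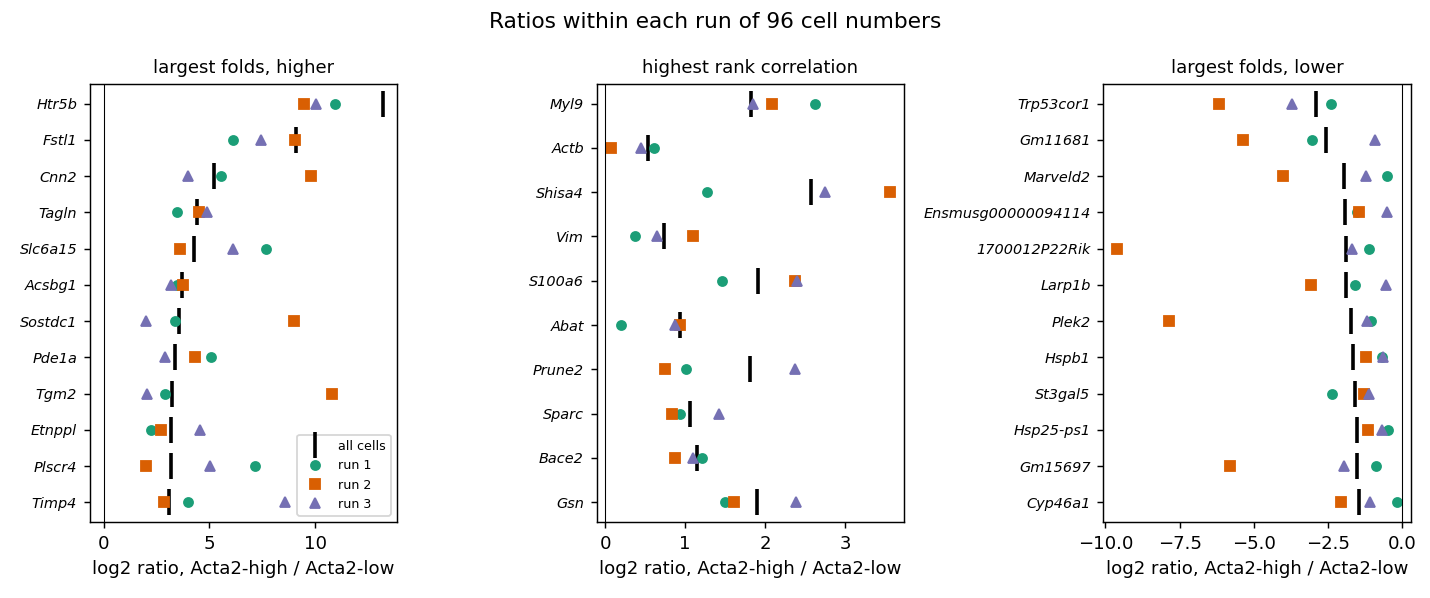
Log2 ratio of Acta2-high over Acta2-low cells for the 12 genes with the largest ratios in each direction and the 10 with the highest rank correlation. The black line is all cells and coloured symbols are the 3 runs; a run with 0 reads in a group was set to 3 reads. Every symbol of a gene lies on the same side of 0, and the second run is often the farthest out among the lower genes.

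On reads summed over cells, fewer genes were lower in Acta2-high cells, and their ratios were smaller. On the mean of the 3 runs' log2 ratios more genes were lower (545) than higher (445). By the rule that named the higher genes, on summed reads, 60 genes were lower. The 12 with the largest ratios were Trp53cor1, Gm11681, Marveld2, Ensmusg00000094114, 1700012P22Rik, Larp1b, Plek2, Hspb1, St3gal5, Hsp25-ps1, Gm15697 and Cyp46a1. Their log2 ratios ran from -2.91 to -1.46, and all 12 had a value between those of the other groups in the cells between the cuts. In 8 of the 12 the runs' values did not overlap between the groups, a pattern that 4.52% of all genes had. The rule, with its ratio and its same direction in every run, already favoured that pattern. St3gal5, which makes the ganglioside GM3, was even over the runs, at 25.3, 48.3 and 53.0 CPM in Acta2-high and 130, 118 and 116 CPM in Acta2-low cells. It was read in 45.5% of Acta2-high and 74.2% of Acta2-low cells.

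Hspb1, a small heat shock protein, stood at 39.1 and 122 CPM, with values of 53.2, 191 and 50.2 CPM in the Acta2-low and 33.4, 82.2 and 32.0 CPM in the Acta2-high cells of the 3 runs. The Acta2-high value of the second run thus lay above the Acta2-low values of both others. Hsp25-ps1, its pseudogene, may hold some of its reads. Larp1b, an RNA-binding protein, stood at 25.4 and 93.4 CPM, Cyp46a1, a hydroxylase of cholesterol, reached 46.8 CPM in Acta2-low cells (log2 ratio -1.46), Plek2 (a pleckstrin) stood at 18.9 and 62.1 CPM, and Marveld2 (tricellulin, of junctions where 3 cells meet) at 7.37 and 28.8 CPM. Trp53cor1, a long noncoding RNA also called lincRNA-p21, stood at 23.3 CPM in Acta2-low cells (log2 ratio -2.91). Ensmusg00000094114 matched no gene of the annotation used. Of 9 astrocyte markers above 20 CPM, 7 were higher in Acta2-high cells and 2 at least 2-fold higher, against 53.6% and 5.61% of all genes. Only 1, Agt (angiotensinogen), was at least 2-fold lower, against 1.94% of all genes. Its medians were 166 CPM in Acta2-high, 416 CPM in the between and 403 CPM in Acta2-low cells. The summed log2 ratio of Agt was -1.13 (-0.52, -2.46 and -0.91 in the runs).

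Ciliary genes were nearly level between the groups. Of 44 motile cilium components above 20 CPM, 0 differed by 2-fold in either direction, 30 were lower in Acta2-high cells, against 46.4% of all genes, and 24 were lower in every run, and the median log2 ratio was -0.11 (-0.13, -0.16 and -0.23 in the runs). Averaged on the deposited log2 values this median turned to 0.23, so its direction depends on the averaging. Rsph1, a radial spoke protein, stood at 1938 and 2495 CPM, and Dynlrb2, a dynein light chain, at 1342 and 1696 CPM. Of the 12 ependymal markers 10 were lower, against 46.4% of all genes, 8 of them in every run, with a median log2 ratio of -0.34. For both lists the share of all genes lower in every run, by any amount, was not counted. Named after their values were seen, Tmem212 stood at 2883, 3874 and 4116 CPM in the high, between and low cells, and Calml4, a calmodulin-like protein, at 641, 1004 and 1113 CPM. Tmem212 had the lowest rank correlation with Acta2 of all genes read in at least 50% of cells (-0.42). Of the regulators of multiciliogenesis 1 of 9 differed by 2-fold: Rfx4, a transcription factor, stood at 121 and 53.1 CPM.

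Matrix genes were mostly higher in Acta2-high cells. Of 17 matrix and integrin genes above 20 CPM, 14 were higher and 5 at least 2-fold higher, against 53.6% and 5.61% of all genes, with a median log2 ratio of 0.54 (0.55, 0.67 and 0.37 in the runs). Beside Timp4 and Sparc these were Col9a3 (52.2 and 21.1 CPM), Timp3 (267 and 120 CPM) and the integrin Itgb8 (66.9 and 31.3 CPM). Timp3 was at a log2 ratio of -0.04 in the second run and Itgb8 at -0.02 in the third. Of 11 junction genes 2 were at least 2-fold higher, against 5.61% of all genes, and the medians within the runs were 0.05, -0.24 and 0.16. These were Jam2, a junctional adhesion molecule (146 and 65.0 CPM), and Cdh2, or N-cadherin (66.9 and 31.1 CPM, and a log2 ratio of -0.05 in the first run). Of 10 fibroblast markers listed, 4 were among the genes analysed here and 2 reached 20 CPM, and these 2 went opposite ways. Col1a2, a chain of type I collagen, stood at 27.5 and 1.26 CPM, with 21.6% and 9.28% of cells having a read. Fbln1 stood at 91.2 and 120 CPM (log2 ratio -0.39). Col1a1 and Pdgfra had 0 reads in both groups.

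Among the general actin and focal adhesion genes, 18 of 22 were higher and 3 at least 2-fold higher, against 53.6% and 5.61% of all genes, with a median log2 ratio of 0.30. The 3 were Cnn2, Vcl (vinculin, log2 ratio 1.08) and Myh10, a nonmuscle myosin (43.5 and 18.9 CPM). Vcl was lower in the first run (-0.35) and Myh10 in the second (-1.03).

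The signalling lists each held few genes past 2-fold, beside 5.61% of all genes higher and 1.94% lower. In the TGF-beta list 1 of 7 genes passed 2-fold, the ligand Tgfb3 (21.5 and 3.95 CPM). In the BMP list 1 of 8 did, the target Id3, an inhibitor of basic helix-loop-helix factors (125 and 29.1 CPM), with log2 ratios of 1.87, 3.38 and 3.23. In the YAP and TEAD list 2 of 8 did: Amotl1 (log2 ratio 2.03) was higher in every run, and Ccn1 (392 and 167 CPM) was lower in the first (-0.32). The median of that list was 0.66, but -0.13, 1.64 and 0.26 within the runs. None of 14 immediate early genes differed by 2-fold, and their median was -0.02. Fos stood at 688 and 1021 CPM. In the interferon and MHC class I list 0 of 13 were 2-fold higher and 1, Tap1, a peptide transporter, 2-fold lower (7.17 and 22.9 CPM), although it was higher in the first run (5.90).

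Positional and glial factors differed in a few members. Of 9 pallial and dorsal factors 8 were lower in Acta2-high cells and 2 at least 2-fold lower, against 46.4% and 1.94% of all genes. The 2 were Zic1 (12.2 and 27.7 CPM) and Zic5 (10.4 and 24.5 CPM), and the list had a median log2 ratio of -0.45 (-0.20, -1.44 and -0.80). Zic4, named after its values were seen, stood at 113 and 197 CPM and was read in 52.3% and 84.5% of cells. Emx1, the dorsal pallial factor, was nearly level at 27.9 and 32.8 CPM, read in 26.1% and 24.7% of cells. Of 2 subpallial and ventral factors above 20 CPM both were higher and 1 at least 2-fold higher, against 53.6% and 5.61% of all genes. The 1 was Meis2, a factor of the ventral telencephalon among other places (59.9 and 27.6 CPM), with log2 ratios of 0.06, 3.39 and 0.39. Under 20 CPM, Dlx2 had 548 reads in Acta2-high and 0 in Acta2-low cells. Nkx2-1 was read in 23.9% and 3.09% of cells, while Gli1 and Sp8 were lower in Acta2-high cells. The SOX and NFI factors showed 0 of 10 past 2-fold: Sox9 stood at 1479 and 1472 CPM and Nfia at 364 and 309 CPM. Of 14 glial filament, water and transport genes 3 were at least 2-fold higher, against 5.61% of all genes: Slc1a3, a glutamate transporter (435 and 168 CPM), Glul, or glutamine synthetase (34.4 and 15.8 CPM, and a log2 ratio of -0.16 in the third run), and Aldoc (181 and 87.5 CPM). Prom1, a membrane protein of stem cells and ciliated cells (52.2 and 10.2 CPM), Lcat (20.9 and 2.17 CPM) and Scn7a (106 and 41.1 CPM), from the lists of stem cell, astrocyte and tanycyte markers, were also at least 2-fold higher, as was Mbp, given above. Lcat was lower in the first run (-0.05). None of the 7 mitochondrially encoded genes in the table differed by 2-fold.

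**Figure D5:**
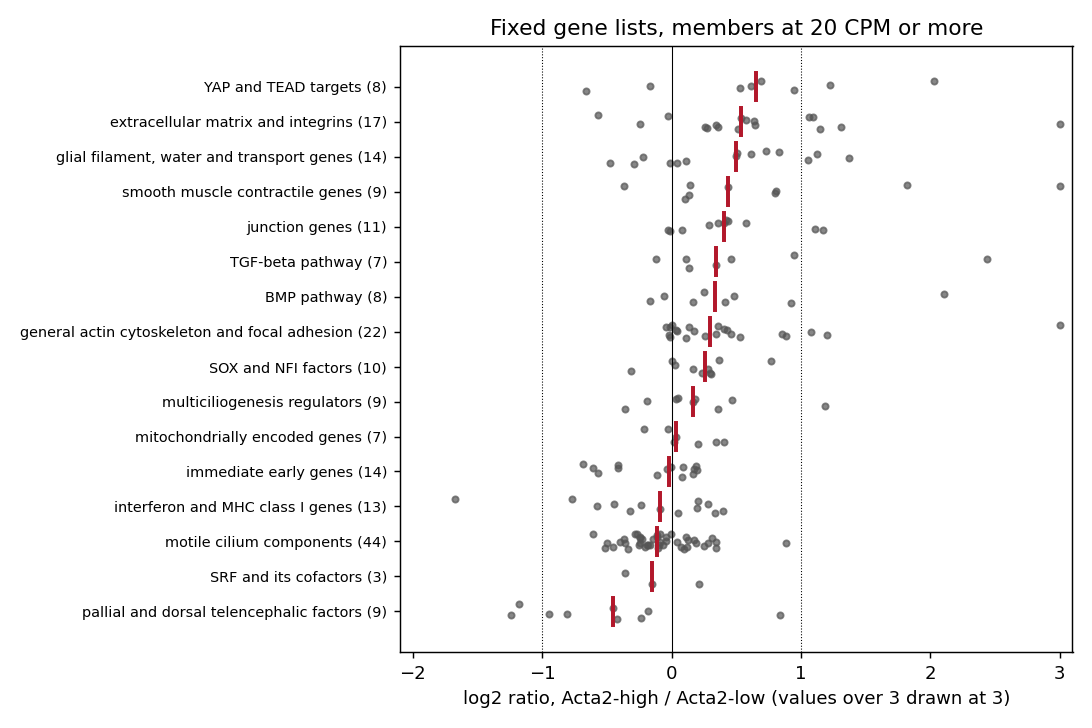
Log2 ratio of Acta2-high over Acta2-low cells for members of the lists shown that reached 20 CPM. Grey points are genes, with values over 3 drawn at 3, the red bar is the list's median, dotted lines mark 2-fold, and the number of genes is in brackets. Medians lie between -0.45 (pallial factors) and 0.66 (YAP and TEAD targets, -0.13 within the first run), and the contractile genes (median 0.44) are led by Tagln and Myl9 with the others closer to 0.

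The same cuts were applied to the other regions, each again 1 sample. Shares of Acta2-high cells were 36.7% in the lateral ventricle (95% Clopper-Pearson interval 30.6 to 43.1), 22.4% in the third ventricle (17.4 to 28.2) and 6.95% in the Foxj1 line midbrain (4.96 to 9.41). Within the lateral ventricle the share was 43.2%, 13.8% and 53.2% in the 3 runs, a spread wider than the gap to the third ventricle. In the third ventricle, 55 Acta2-high cells were set against 124 Acta2-low cells. There 3.09% of 7952 genes were at least 2-fold higher and 3.24% at least 2-fold lower, with 50.1% higher and 49.9% lower by any amount. Of the 262 genes that the rule found higher in the lateral ventricle 222 reached 20 CPM here, of which 147 were higher and 15 at least 2-fold higher. Of the 60 lower genes 41 reached it, of which 23 were lower and 5 at least 2-fold lower. Of the 12 genes higher in the lateral ventricle 11 reached 20 CPM, 9 of them were higher and 4 at least 2-fold higher, with a median log2 ratio of 0.84: Tagln (282 and 31.3 CPM), Pde1a (37.8 and 10.6 CPM), Cnn2 (50.5 and 16.3 CPM) and Etnppl (97.2 and 32.6 CPM). Htr5b stood at 261 and 145 CPM there, so that Acta2-low cells of the third ventricle carried it too. Myl9 stood at 826 and 429 CPM, a log2 ratio of 0.94. Shisa4 stood at 318 and 322 CPM and Gsn at 1063 and 1271 CPM, neither higher in Acta2-high cells. Over the 11 contractile genes that reached 20 CPM the median was 0.35.

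In the midbrain, 38 Acta2-high cells were set against 447 Acta2-low cells, of which many had high Sspo, the gene of the subcommissural organ. At least 2-fold higher were 7.18% of 8361 genes and at least 2-fold lower 15.1%, with 46.7% higher and 53.3% lower by any amount. Of the 262 genes higher in the lateral ventricle 209 reached 20 CPM here, of which 96 were higher and 113 lower. Of the 60 lower genes 46 did, of which 25 were higher and 21 lower. Tagln had 0 reads in the 38 Acta2-high midbrain cells, as had Etnppl and Sostdc1, and Htr5b had 1 read. Myl9 stood at 341 and 91.1 CPM, a log2 ratio of 1.91, and at 0.95 without the Sspo-high cells. The median log2 ratio of the contractile genes was 1.09 with all Acta2-low cells and 0.42 without those with Sspo at or above 1000 CPM (236 cells remained). Higher Myl9 in Acta2-high cells was therefore measured in all 3 regions, and higher Tagln in the lateral and the third ventricle. Whether the ratios differ between regions was not tested. The spinal cord had 5 Acta2-high cells of 114 and the Nkx2-2 line 1 of 327, too few to compare.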

How the data were processed

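Raw read counts of 16347 genes in 1473 cells were in 1 of the 2 tables that the authors deposited. The other holds deposited log2 values, which equalled log2 of the count over a size factor per cell, plus 1, for 100% of values within 0.01 (size factors 0.0875 to 6.00). Per the labels' protocols, cells were sorted into 96-well plates and made into Smart-seq2 libraries, which carry no molecular identifiers. STAR 2.3.1o, Seurat 3 and mm10 are named in the submitters' processing notes. How reads were assigned to genes is not given in the sources used here. Of the gene names 16030 matched GENCODE vM21 (GRCm38) and 317 did not.

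Columns starting with Forebrain were taken as the lateral ventricle sample, which rests on anatomy. Counts of a group's cells were summed (68623135 reads in Acta2-high and 65826295 in Acta2-low cells) and scaled to CPM, with exact Poisson or Clopper-Pearson 95% intervals. Reads are not independent molecules, so intervals cover counting error only. A group with 0 reads was set to 3 reads for a log2 ratio. With 1 sample there was no test and no p-value. The shallowest cell had 108417 reads, no cell was filtered out and no doublet caller was run, since wells were sorted to hold 1 cell. Python 3.11.15, numpy 2.4.6, pandas 2.3.3 and scipy 1.17.1 were used, and the ratios were checked on simulated counts. The named genes were the 12 with the largest ratio in each direction (at least 20 CPM and a read in at least 25% of cells of the higher group, 2-fold, same direction in all 3 runs), the 10 with the highest Spearman correlation with Acta2 and members of fixed lists. The cells, members and lists were chosen with earlier results of these data known. Alternatives varied the cuts, the minimum, the fold, the averaging and the cells left out. A fixed list is not reported here.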

Additional observations from a re-analysis of the deposited data

Results flagged for a closer look

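Among the genes named here that differed by at least 2-fold in the lateral ventricle, 14 differed by at least 2-fold the other way in the midbrain and none in the third ventricle. Over all genes compared, 15.1% were at least 2-fold lower and 7.18% at least 2-fold higher in Acta2-high midbrain cells. In the third ventricle these shares were 3.24% and 3.09%, so 2-fold differences were rarer there in general. The difference between regions itself was not tested. Htr5b, higher in Acta2-high lateral ventricle cells, had a log2 ratio of -9.76 in the midbrain, where 1 read was found in Acta2-high cells and 25.9 CPM in Acta2-low cells. Plek2, lower in Acta2-high lateral ventricle cells (-1.71), had 1.89 in the midbrain (0.93 without the Sspo-high cells). Cyp46a1, also lower in the lateral ventricle (-1.46), had 1.0 in the midbrain (0.78 without the Sspo-high cells). The others were higher in Acta2-high lateral ventricle cells and lower in Acta2-high midbrain cells. Their midbrain log2 ratios were -5.45 for Id3, -3.55 for Prom1, -2.0 for Mbp, -1.97 for Slc1a3, -1.52 for Glul, -1.46 for both Jam2 and Aldoc, -1.24 for Itgb8, -1.17 for Col9a3, -1.13 for Prune2 and -1.07 for Amotl1. Without the Sspo-high cells they were -2.05 for Id3, -2.66 for Mbp, -2.71 for Slc1a3, -1.65 for Itgb8, -1.59 for Aldoc, -0.91 for Jam2, -0.89 for Prom1, -0.63 for Col9a3, -0.26 for Glul, -0.12 for Prune2 and 0.10 for Amotl1, which was then under 20 CPM in both groups.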

How the results depend on the processing

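The number of genes at least 2-fold higher (436) and lower (151) in Acta2-high cells moved with most settings. They were 1267 and 56 on the deposited log2 values, 244 and 79 with a single cut at 200 CPM, 798 and 322 with a minimum of 10 CPM, 132 and 29 with a minimum of 50 CPM, 1202 and 562 at 1.5-fold, and 135 and 32 at 3-fold. Leaving out 1 run of cells gave 365 to 795 higher and 261 to 300 lower genes. The lower genes were also 269 with Acta2-high cells at or above 1000 CPM, 545 on the mean of the 3 runs and 267 among cells with 4500 to 6500 detected genes. The last 2 settings were added after the data were seen. Higher genes made up 74.3% of the calls, against 95.8% on the deposited log2 values, 45.0% on the mean of the runs, 58.3% without the second run and 58.9% among cells with 4500 to 6500 genes.

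The contractile genes' median of 0.44 was 0.18 with the single cut, 0.80 with the minimum of 50 CPM, 0.17 among cells with 4500 to 6500 genes and 0.26 to 0.35 with 1 run left out. In the third ventricle it was 0.21 with Acta2-high cells from 200 CPM, against 0.35, and in the midbrain 0.42 without Sspo-high cells, against 1.09. The cilium genes' median of -0.11 became 0.23 on the deposited log2 values and -0.18 on the mean of the runs. The share of Acta2-high cells (36.7%) was 28.6% to 48.1% with 1 run left out, 48.8% with a cut at 200 CPM and 22.5% at 1000 CPM. The cause of these shifts was not tested. For 58 named genes under 14 settings each, a change of sign was counted only where the ratio was at least 2-fold. Among these 1 value changed sign: Ccn1 at -0.079 among cells with 4500 to 6500 genes. Sign changes of smaller ratios were not counted. No paired analysis was possible because each group of samples holds 1 sample and the comparison lies within it. Depth limits genes below 20 CPM and those read in few cells.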

Other observations

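Detection without amount differed for some genes. Plscr4 was read in 69.2% of the Acta2-low cells of the third run and in 66.7% of the Acta2-high cells there, yet its log2 ratio in that run was 5.01. Acta1 was read in 44.3% of Acta2-high and 24.7% of Acta2-low cells at 1.28 and 1.03 CPM. Single cells weighed on some sums: 1 cell held 20.2% of the Tagln reads of Acta2-high cells, 16.8% of those of Htr5b and 15.1% of those of Cnn2. Across the samples, Tagln stood at 101 CPM over all lateral ventricle cells, 95.6 CPM over the third ventricle, 26.1 CPM over the spinal cord and 3.23 CPM over the Foxj1 line midbrain.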
